A study of Mus musculus with 6 samples.

Results

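Kidney mRNA of 10 genes that make, break down or sense prostaglandins was compared between control mice and mice given adenine with potassium oxonate for 21 days. The genes were Ptgs1, Ptgs2, Ptges, Ptgds and Tbxas1 (synthesis), Hpgd (breakdown) and Ptger1, Ptger2, Ptger3 and Ptger4 (receptors of prostaglandin E2). They were found by gene symbol among the 55450 genes of the deposited count table, and all 10 were listed there. All mice were male wild-type C57BL/6J animals bought at 7 weeks of age and housed for 1 week before the study. The day-21 group received adenine at 0.16 g/kg together with potassium oxonate at 2.4 g/kg by gavage each day, a mixture meant to raise uric acid and injure the kidney, since potassium oxonate blocks uricase and adenine adds purine. The sample labels describe this as feeding. The day-0 group was the control and is labelled with 20% PEG. RNA was sequenced from 3 mice of each group, out of 6 mice per group in the study. The day-21 mice were also 21 days further into the study when sampled, and the vehicle of their gavage is not named, so that treatment, vehicle and time cannot be told apart. Whole kidney tissue was measured, in which fewer cells of a type and less RNA per cell cannot be told apart.

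Prostaglandins are lipid signals made from arachidonic acid, which phospholipases cut from membranes. Cyclooxygenases turn arachidonic acid into prostaglandin H2, and a terminal synthase then makes prostaglandin E2, prostaglandin D2, prostacyclin, prostaglandin F or thromboxane A2 from it. Prostaglandin E2 acts on EP receptors, of which EP2 and EP4 raise cyclic AMP, EP3 lowers it and EP1 raises intracellular calcium. In the kidney these signals are known for setting renal blood flow, renin release and the handling of salt and water, and EP3 in particular is abundant in the thick ascending limb and the collecting duct, where it opposes vasopressin.

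The 6 libraries held 10963849 to 14333311 counts, so that 3 counts, taken as the floor of detection, corresponded to 0.209 to 0.274 CPM (a count scaled to the size of its library). This floor covers counting error only, and it is on library sizes without the scaling used for the values below. CPM values below are on library sizes scaled by TMM, a method that takes most genes to be equal between libraries. The TMM factors were 0.852 to 0.886 in the day-0 group and 1.12 to 1.17 in the day-21 group, and mitochondrially encoded genes held 9.39% to 9.86% of counts on day 0 and 3.82% to 4.42% on day 21. A differentially expressed gene (DEG) was one with a Benjamini-Hochberg adjusted p under 0.05 in edgeR's quasi-likelihood test over 16592 genes and a fold over 1.5. Without TMM, on library size alone, the median over all genes moved up by 0.39 on the log2 scale, and the DEGs split into 5985 higher and 1338 lower in place of 3249 higher and 2572 lower. Nothing in the labels says that the 3 mice of a group came from separate cages or batches. The p-values set the difference between groups against the spread between these mice. Markers of kidney epithelium were present in every mouse, with the 8 proximal tubule markers summing to 13790 to 15240 CPM on day 0 and 3095 to 4023 CPM on day 21.

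Of the 10 genes, 9 had enough counts to be tested, and 6 were higher, 1 was lower and 2 were not DEGs on day 21. The 6 that rose were Ptgs2, Ptges, Ptgds, Tbxas1, Hpgd and Ptger4, the one that fell was Ptger3, and Ptgs1 and Ptger1 were not called. Ptgs2 passed the filter only through its day-21 counts, so that its place among the tested genes depended on the group where it was high. For comparison, DEGs made up 35.1% of the whole table tested, 19.6% being higher and 15.5% lower. The groups did not overlap in 8 of the 9 genes, nor in 57.1% of all genes tested. The median log2 fold change was 0.80 over the 9 genes and 0.03 over all genes tested. The count of genes called higher was 4 or 5 when any one mouse was left out, since Ptgs2 or Ptges then lost its call, and Ptger3 stayed the one gene called lower.

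**Figure D1:**
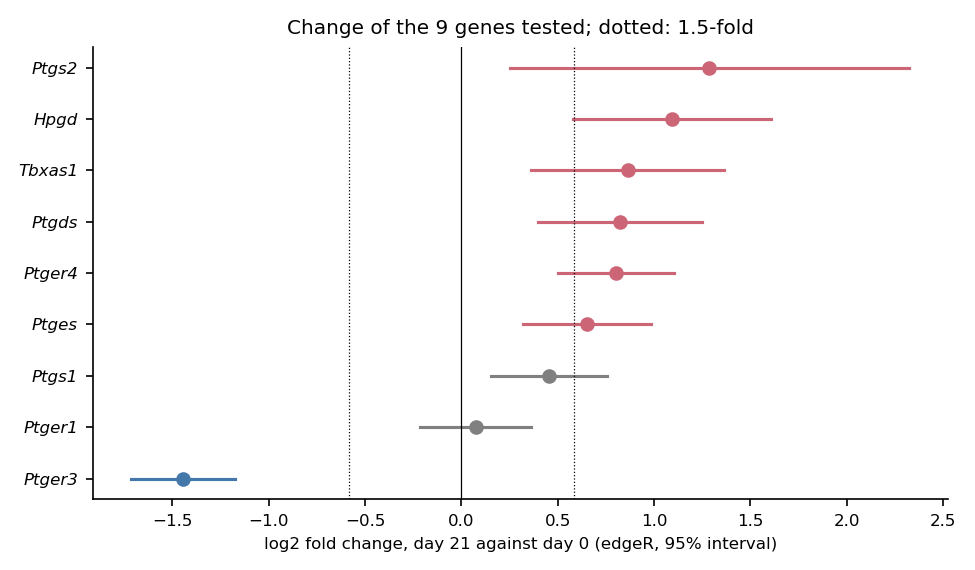
Difference between day 21 and day 0 in log2 fold change (horizontal axis) for the 9 genes tested, as the edgeR estimate with its 95% confidence interval, with DEGs in red (higher) or blue (lower), other genes in grey and dotted lines at a fold of 1.5. Ptger3 lies at -1.44 with an interval far below 0, Ptger1 lies at 0.07 with an interval across 0, and the other 7 lie above 0.

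The cyclooxygenases differed in level and in how firmly they changed. Ptgs1 (ENSMUSG00000047250.13, GRCm38 chr2:36230426-36252272, forward strand) encodes cyclooxygenase-1, the form most tissues make all the time. It stood at 21.1, 25.1 and 19.9 CPM in the control mice and at 31.0, 27.9 and 31.9 CPM in the treated mice. The groups did not overlap, and the log2 fold change was 0.45 (SE 0.13, 95% interval 0.15 to 0.75), with an edgeR adjusted p of 0.0194. The corresponding fold of 1.37 was under the limit of 1.5, so that Ptgs1 was not a DEG. On library size alone it was one, at 0.84. Of its exon bases 3.8% lie in exons of Gm43621 on the opposite strand, which had 43 to 135 counts per mouse.

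Ptgs2 (ENSMUSG00000032487.8, chr1:150100031-150108227, forward strand) encodes cyclooxygenase-2, the inducible form, which the kidney makes in the macula densa and in interstitial cells of the medulla. It had few reads, with 5, 7 and 15 counts in the control mice and 28, 31 and 41 counts after 21 days. The day-21 mice alone brought Ptgs2 through the filter. In CPM the controls were at 0.501, 0.577 and 1.55 and the treated mice at 1.98, 1.85 and 2.51. The groups did not overlap, although replicate 3 of day 0 stood closer to the day-21 mice than to the rest of its own group. Ptgs2 rose 2.44-fold (log2 fold change 1.29, SE 0.47, 95% interval 0.25 to 2.32, edgeR adjusted p = 0.0447). That call was close to its threshold. DESeq2 gave an adjusted p of 0.0567, and edgeR gave adjusted p-values of 0.136 and 0.145 without replicate 1 or replicate 2 of day 0, and 0.0876, 0.0764 and 0.148 without replicate 1, 2 or 3 of day 21. Of the 6 mice left out in turn, replicate 3 of day 0 was the one without which the call held, with a log2 fold change of 1.93. The antisense gene Ptgs2os, which neighbours Ptgs2, had no count in any mouse.

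The promoter of Ptgs2 is printed because Ptgs2 is the inducible gene of the pathway, beside that of Ptger3, the gene that fell. RefSeq gives both on GRCm38.p6, Ptgs2 at chr1:150099781-150100060 and Ptger3 at chr3:157566626-157566905, each on the forward strand and each with the 250 bases before the start site and the 30 bases from it. Capitals mark matches to the motifs searched.
Ptgs2: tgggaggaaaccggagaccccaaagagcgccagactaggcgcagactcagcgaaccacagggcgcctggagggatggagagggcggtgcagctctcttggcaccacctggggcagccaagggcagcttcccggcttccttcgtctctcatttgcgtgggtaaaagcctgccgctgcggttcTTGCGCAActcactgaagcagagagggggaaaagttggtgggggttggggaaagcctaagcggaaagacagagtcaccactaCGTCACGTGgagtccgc
Ptger3: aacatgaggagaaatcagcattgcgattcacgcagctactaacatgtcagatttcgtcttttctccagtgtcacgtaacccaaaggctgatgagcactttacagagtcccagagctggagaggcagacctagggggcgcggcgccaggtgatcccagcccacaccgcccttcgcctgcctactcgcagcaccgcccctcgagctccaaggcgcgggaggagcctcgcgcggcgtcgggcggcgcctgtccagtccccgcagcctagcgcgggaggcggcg

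In Ptgs2 the first capitals are TTGCGCAA, which matches the C/EBP motif TTGCNNAA and begins 69 bases before the start site. The second run, which begins 13 bases after the first base of the start site, holds the reverse complement of the short CRE motif TGACG and, overlapping it, the E-box CACGTG. Of 32851 RefSeq windows of 300 bases searched on both strands, the C/EBP motif was in 10.8%, the short CRE motif in 20.8% and the E-box in 7.15%. Windows were found for 9 of the 10 genes, all but Ptger1. The Ptgds window held an AP-1 motif (TGANTCA, in 7.81% of windows) and a kappaB consensus (in 4.51%), the Tbxas1 window an AP-1 motif and TATAAA on both strands (in 13.6%), the Hpgd window TATAAA and the Ptger2 window a C/EBP motif. None of the motifs, the full CRE TGACGTCA (in 1.79% of windows) included, was in the windows of Ptgs1, Ptges, Ptger3 and Ptger4. These matches describe letters and not binding.

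The terminal synthases Ptges, Ptgds and Tbxas1 all rose. Ptges (ENSMUSG00000050737.13, chr2:30889471-30929863, reverse strand) encodes microsomal prostaglandin E synthase-1, the inducible enzyme that is often coupled to cyclooxygenase-2. It was at 34.5, 47.0 and 34.3 CPM on day 0 and at 55.1, 68.7 and 58.4 CPM on day 21, with no overlap. Its fold of 1.57 (log2 fold change 0.65, SE 0.15, edgeR adjusted p = 0.00523) was just over the limit. The log2 fold change was 0.55 without replicate 1 of day 0, 0.55 without replicate 3 of day 0 and 0.56 without replicate 2 of day 21, each under a fold of 1.5 with an adjusted p still under 0.05, and Ptges was then no DEG.

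Ptgds (ENSMUSG00000015090.13, chr2:25466709-25470046, reverse strand) encodes lipocalin-type prostaglandin D synthase, which also binds small lipophilic molecules in body fluids. It was at 12.8, 15.3 and 17.1 CPM on day 0 and at 21.5, 33.9 and 24.6 CPM on day 21. Replicate 2 of day 21 was the highest, and all 3 day-21 mice lay above the day-0 mice. Ptgds rose 1.77-fold (log2 fold change 0.83, SE 0.19, edgeR adjusted p = 0.00547).

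Tbxas1 (ENSMUSG00000029925.13, chr6:38875404-39084585, forward strand) encodes thromboxane A synthase, whose product constricts vessels and activates platelets and which platelets and macrophages make. It was at 14.1, 9.23 and 7.83 CPM on day 0 and at 17.5, 22.4 and 16.8 CPM on day 21. The groups did not overlap, and replicate 1 of day 0 came nearest to the day-21 group. Tbxas1 rose 1.82-fold (log2 fold change 0.86, SE 0.23, 95% interval 0.36 to 1.36, edgeR adjusted p = 0.0103). Platelet markers summed to 7.21 to 9.31 CPM on day 0 and 7.46 to 9.40 CPM on day 21, with Itga2b the largest part on day 0, and the platelet glycoprotein gene Gp9 was at 0 to 3 counts in every mouse. One platelet marker was a DEG, Pf4, which rose by 1.72 on the log2 scale with 8, 14 and 8 counts on day 0 and 47, 44 and 55 counts on day 21 (edgeR adjusted p = 0.00265). All 8 macrophage markers were DEGs and rose, from a sum of 162 to 213 CPM to a sum of 959.6 to 1270 CPM. The part of macrophages and platelets in the Tbxas1 value was not tested.

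Hpgd (ENSMUSG00000031613.9, chr8:56294585-56321043, forward strand) encodes the dehydrogenase that starts the inactivation of prostaglandins by oxidizing them. It was at 7.42, 6.92 and 12.1 CPM on day 0 and at 19.2, 15.5 and 21.5 CPM on day 21. All day-21 mice lay above the highest day-0 mouse. Hpgd rose 2.13-fold (log2 fold change 1.09, SE 0.23, 95% interval 0.58 to 1.61, edgeR adjusted p = 0.00317), and it was the one gene of the 10 that was called higher when the limits were set to an adjusted p of 0.01 and a 2-fold change.

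**Figure D2:**
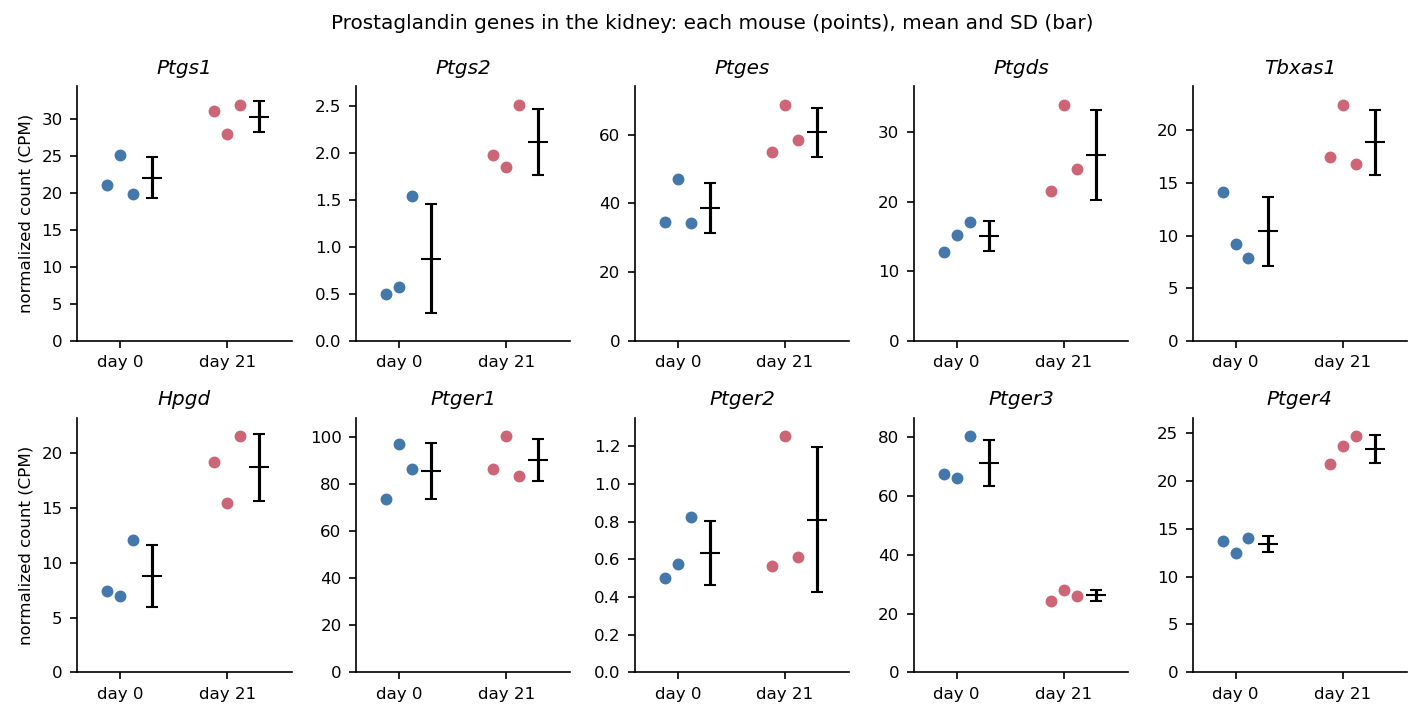
TMM-scaled CPM (vertical axes, linear and starting at 0, one scale per gene) of each of the 10 genes in the 3 day-0 and 3 day-21 mice, with 1 point per mouse and the group mean ± SD. Ptger3 is the one panel in which all day-21 mice lie below the day-0 mice, and the groups overlap in Ptger1 and Ptger2.

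Synthesis was set against breakdown within each mouse as a log2 ratio per exon length. The Ptges to Hpgd ratio was 0.93 ± 0.63 on day 0 and 0.48 ± 0.39 on day 21 (SD, n = 3 each, two-sided exact permutation p = 0.3). The Ptgs1 to Hpgd ratio was 0.15 ± 0.58 on day 0 and -0.50 ± 0.14 on day 21 (n = 3 each, exact permutation p = 0.2). The groups overlapped in both ratios, and neither difference could be parted from the spread between mice by the test. The Ptgs2 to Ptgs1 ratio was -4.99 ± 0.96 on day 0 and -4.07 ± 0.16 on day 21 (n = 3 each, exact permutation p = 0.4). In the first 2 day-0 mice it was -5.50 and -5.59, and in replicate 3 it was -3.88, which was above the -3.89 of the highest day-21 mouse. For 3 mice against 3 the smallest p such a test can give is 0.1, and 7 pairs of genes were compared, with adjusted p-values from 0.35 to 0.6. Ptges against Tbxas1 and Ptges against Ptgds differed by -0.23 and -0.14 between the days, with overlapping groups.

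Among the EP receptors, the one that lowers cyclic AMP fell and one that raises it rose. Ptger3, the EP3 gene (ENSMUSG00000040016.16, chr3:157566892-157645888, forward strand), was at 67.4, 66.3 and 80.3 CPM on day 0 and at 24.5, 28.0 and 26.2 CPM on day 21. Every day-21 mouse lay far below the lowest day-0 mouse. Ptger3 fell by 1.44 on the log2 scale (SE 0.12, 95% interval -1.71 to -1.17, edgeR adjusted p = 1.04e-05), which is 2.72-fold lower. Of the 2572 genes called lower, 745 lay at this value or lower, Ptger3 included. When any one mouse was left out Ptger3 still fell by 1.37 or more on the log2 scale, and it fell by 1.05 on library size alone. Its exons overlap no other annotated gene, and its promoter, printed above, held none of the motifs searched.

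Markers of the segments where EP3 is known to be made moved with it in part. The summed level of 5 thick ascending limb and macula densa markers went from between 5468 and 6825 CPM to between 3647 and 4079 CPM. Of the 5, 2 were called lower and 1 was called higher (median log2 fold change -0.70). Most of the sum was Umod, at 3989 to 5421 CPM on day 0 and 3173 to 3544 CPM on day 21. Umod itself was not called, with a log2 fold change of -0.45. The 8 collecting duct markers summed to 717 to 851 CPM on day 0 and 491 to 585 CPM on day 21, with 3 called lower and 5 not called (median -0.27). Over all genes tested, 19.6% were called higher and 15.5% lower. No marker of either list was at 0 counts in any mouse. The part of these cell types in the Ptger3 value was not tested.

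Ptger4, the EP4 gene (ENSMUSG00000039942.15, chr15:5206661-5244187, reverse strand), was at 13.7, 12.5 and 14.0 CPM on day 0 and at 21.8, 23.6 and 24.6 CPM on day 21. Each group was tight and the gap between them was wide. Ptger4 rose 1.74-fold (log2 fold change 0.80, SE 0.14, 95% interval 0.50 to 1.10, edgeR adjusted p = 0.00082). Of its exon bases 16.5% lie in exons of other genes on the opposite strand, mostly in the pseudogene Gm15937, which had 0 to 3 counts per mouse.

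Ptger2, the EP2 gene (ENSMUSG00000037759.6, chr14:44988195-45003820, forward strand), was close to the floor in every mouse, with 5, 7 and 8 counts on day 0 and 8, 21 and 10 counts on day 21. These are 0.501, 0.577 and 0.825 CPM against 0.566, 1.25 and 0.613 CPM, and the groups overlapped. The gene did not pass the filter. In a fit of all 26914 genes with any count its log2 fold change was 0.37 (SE 0.68, 95% interval -0.96 to 1.70, edgeR adjusted p = 0.71) and a change was not detectable at this depth, since the interval holds both a 2-fold rise and no change.

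Ptger1, the EP1 gene (ENSMUSG00000019464.6, chr8:83666678-83672753, forward strand), was at 73.5, 97.1 and 86.3 CPM on day 0 and at 86.4, 100.3 and 83.7 CPM on day 21. The groups overlapped, and the log2 fold change was 0.07 (SE 0.13, 95% interval -0.22 to 0.36, edgeR adjusted p = 0.676), an interval that holds no fold of 1.5 in either direction. On library size alone the log2 fold change was 0.47, which was still no DEG. The reads behind this value are uncertain in origin, since 71.0% of the exon bases of Ptger1 also lie in other annotated exons, and how the counting assigned such reads is not given in the sources used here.

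Within the EP receptors, the balance between EP4 and EP3 differed between the groups without overlap. The Ptger4 to Ptger3 log2 ratio per exon length was -2.52, -2.63 and -2.74 on day 0 and -0.39, -0.47 and -0.31 on day 21. As a plain ratio of levels, this went from 0.162 to 0.763, a 4.72-fold difference. With no overlap between 3 and 3 mice, the two-sided exact permutation p was 0.1, the smallest this design can give, and 0.35 after adjustment over the 7 pairs. Ptger4 rose and Ptger3 fell, each without overlap, so the separation of their ratio followed from those values. The ratio restates these changes and adds no further support. The Ptger2 to Ptger3 ratio was higher by 1.68 on the log2 scale, also without overlap (exact permutation p = 0.1, adjusted 0.35), but it rests on the few counts of Ptger2.

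As a share of all EP receptor mRNA per exon length, Ptger3 held 43.1%, 37.1% and 43.9% on day 0 and 18.3%, 18.2% and 19.4% on day 21. The Ptger4 share was 7.52%, 5.96% and 6.55% on day 0 and 13.9%, 13.1% and 15.6% on day 21. Both were without overlap (two-sided exact permutation p = 0.1 with n = 3 each, 0.133 adjusted over 4 receptors). Ptger1 nominally held 51.6% ± 4.36 on day 0 and 66.6% ± 1.77 on day 21 (SD, n = 3 each), a share that rests on those uncertain reads. Shares within a mouse are tied to each other, so that a share can rise when another falls. The log2 fold change of Ptger1 itself was 0.07. Ptger2 held under 1% in every mouse. Leaving Ptger1 out, a choice made after its overlap and values were seen, the Ptger3 share went from 85.4% ± 0.80 to 55.7% ± 0.95, and the Ptger4 share from 13.8% ± 0.94 to 42.5% ± 1.61.

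**Figure D3:**
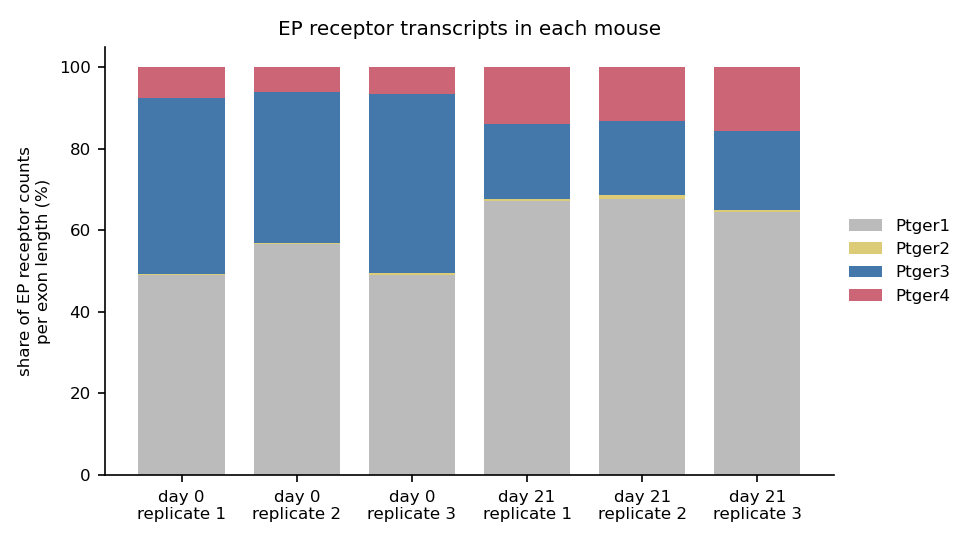
Share of EP receptor mRNA per exon length held by each receptor gene (vertical axis, percent, stacked to 100%) in each of the 6 mice. The Ptger3 segment spans 37.1% to 43.9% on day 0 and 18.2% to 19.4% on day 21, and the Ptger4 segment is larger in each day-21 mouse than in any day-0 mouse.

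Compared per kilobase of exon, the levels on day 0 ran from 15.7 ± 2.16 CPM per kb for Ptger1 down through Ptger3 (12.5 ± 1.37), Ptges (9.82 ± 1.85), Ptgds (9.14 ± 1.30), Ptgs1 (5.67 ± 0.71), Hpgd (5.23 ± 1.68), Ptger4 (2.02 ± 0.13), Tbxas1 (1.14 ± 0.36) and Ptgs2 (0.191 ± 0.127) to Ptger2 (0.122 ± 0.033), as mean ± SD of 3 mice. Neighbours in this order whose mice overlapped on day 0 were Ptger1 with Ptger3, Ptger3 with Ptges, Ptges with Ptgds, Ptgs1 with Hpgd, and Ptgs2 with Ptger2. On day 21 Ptger3 had moved from the second to the sixth place, at 4.61 ± 0.31 CPM per kb. Ptger1 (16.5 ± 1.63), Ptgds (16.2 ± 3.91) and Ptges (15.5 ± 1.80) then overlapped. They were followed without overlap by Hpgd (11.1 ± 1.81) and Ptgs1 (7.78 ± 0.54), which had overlapped on day 0. Ptger4 (3.51 ± 0.22), Tbxas1 (2.08 ± 0.34), Ptgs2 (0.461 ± 0.077) and Ptger2 (0.156 ± 0.074) came last, and no neighbours among these overlapped. This order and these overlaps hold for the union of exons as length and can differ with another length. The union had 3884 bases for Ptgs1, 5688 for Ptger3 and 9094 for Tbxas1. Their longest transcripts had 2867, 3577 and 4562 bases, while Hpgd had 1683 bases by both measures.

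Around these genes, the phospholipase A2 genes tested, a list made by family name, were either called higher or not called. Of 21 phospholipase A2 genes, 8 had enough counts, and 4 of them rose and 4 were not called (median log2 fold change 0.51, against 0.03 over all genes tested, of which 19.6% were called higher and 15.5% lower). Among those not called, Pla2g6 at -0.56 and Pla2g12a at -0.47 had groups that did not overlap and edgeR adjusted p-values of 0.007 and 0.0405, with folds under 1.5, and they are named after their values were seen. Pla2g15, the lysosomal enzyme, rose by 1.83, with 80, 102 and 90 counts on day 0 and 396, 577 and 469 counts on day 21 (edgeR adjusted p = 9.22e-06). Pla2g4a, the cytosolic enzyme that supplies cyclooxygenases with arachidonic acid, rose by 1.47, with 78, 69 and 135 counts on day 0 and 326, 383 and 477 counts on day 21 (edgeR adjusted p = 0.00166).

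The other terminal synthases went both ways, with 1 of 8 tested called higher and 2 called lower (median log2 fold change -0.17). Over all genes tested, 19.6% were called higher and 15.5% lower. Hpgds, the hematopoietic prostaglandin D synthase, rose by 3.26 on the log2 scale, with 6, 2 and 11 counts on day 0 and 79, 100 and 100 counts on day 21 (edgeR adjusted p = 0.000253). Hpgds passed the filter only through its day-21 counts. It makes the same product as Ptgds. Akr1c18, a reductase of the aldo-keto family, fell by 3.75, with 134, 251 and 459 counts on day 0 and 45, 4 and 44 counts on day 21 (edgeR adjusted p = 0.000841), and its levels differed widely within both groups. Ptges2, another prostaglandin E synthase, fell by 0.60, opposite to Ptges.

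Among 8 genes of breakdown and transport other than Hpgd, 2 rose and 1 fell (median log2 fold change 0.22). The shares called over all genes tested were 19.6% higher and 15.5% lower. Cbr3, a carbonyl reductase, rose by 1.68, and Abcc4, an exporter of prostaglandins from cells, rose by 0.72. Ptgr2, a reductase that acts on the product of Hpgd, fell by 0.81, with 1472, 1993 and 1613 counts on day 0 and 1399, 1389 and 1476 counts on day 21. Of the 5 other prostanoid receptors 3 were tested, and Ptgir, the prostacyclin receptor, was called higher at 1.38 with 12, 9 and 17 counts on day 0 and 44, 47 and 59 counts on day 21 (edgeR adjusted p = 0.013). The other 2 tested were not called, and Ptgdr had no count in any mouse.

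**Figure D4:**
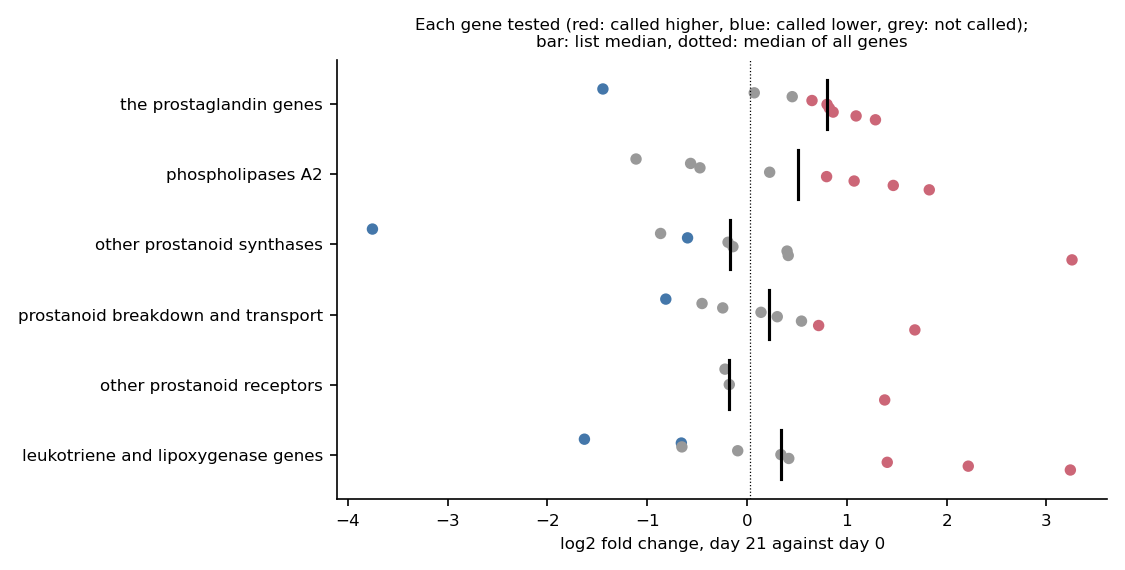
Log2 fold change of day 21 against day 0 (horizontal axis) for each tested gene of 6 gene lists (rows), with genes called higher in red, called lower in blue and not called in grey, a bar at the median of each list and a dotted line at 0.03, the median of all genes. The prostaglandin genes have their median at 0.80 and the 1 blue point is Ptger3, while the other synthases reach from -3.75 to 3.26.

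Values of the cell type lists are given beside these genes. Of all genes tested, 19.6% were called higher and 15.5% lower. Proximal tubule markers were called lower in 8 of 8 genes and interstitial fibroblast markers higher in 6 of 6, from sums of 177 to 275 CPM to sums of 792 to 1303 CPM. Podocyte and endothelial markers were called lower in 3 of 5 and 2 of 6 genes. Of the neutrophil markers 3 of 4 were tested, with 2 called lower and 1 higher, and their sums were 13.2 to 24.0 CPM on day 0 and 10.1 to 10.9 CPM on day 21. Of the members, Ptgs2, Ptges, Ptgds, Tbxas1, Hpgd and Ptger4 moved in the direction of the fibroblast and macrophage lists. Ptger3 moved in that of the tubule lists. Ptgs2 moved opposite to the median of the thick ascending limb and macula densa list (-0.70, 2 of 5 called lower and 1 higher). The part of cell composition in these values was not tested.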

How the data were processed

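Kidney mRNA of 3 day-0 and 3 day-21 mice had been sequenced by the authors as paired-end reads of 150 bases from TruSeq libraries. The submitters' processing notes name TopHat and mm10, and the counting program and strand setting are not given in the sources used here. The authors deposited raw read counts per gene for each mouse, with GENCODE mouse release M21 identifiers and no normalization. Each mouse was grouped by its own label, and all columns were mapped.

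The groups were fitted with edgeR 4.0.16 in R 4.3.3, after filterByExpr (minimum count 10, minimum total 15) and TMM scaling, by its quasi-likelihood test with no replicate block, and p-values were adjusted by Benjamini-Hochberg over 16592 genes. A DEG needed an adjusted p below 0.05 and more than a 1.5-fold change, as in the study. Among the genes named, Ptgs2, Hpgds, Cysltr1, Ptgir and Pf4 passed the filter through the day-21 mice, with day-0 counts partly below its limit. The biological coefficient of variation was 16.2%. No 2 mice of a group were duplicates (chi-square per gene 7.19 to 24.0). Confidence intervals are 95%. Levels of different genes used CPM per kilobase of the union of exons, in place of the TPM first planned, since TPM carries no TMM scaling. Ratios and shares used raw counts per kilobase of the same exons. Ratios used a pseudocount of 0.5 counts and a two-sided exact permutation test.

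The members and lists were chosen with earlier results of these data known. All 10 members were named, and from each list the 2 DEGs that rose most and the 2 that fell most, if their mean count was 20 or more. Genes at 0 and the marker Gp9 were named after their values were seen. Alternatives were scaling by RLE, by upper quartile or by library size only, a filter at a mean of 50 counts or none, DESeq2 1.42.0, limma-voom (limma 3.58.1), other thresholds, a replicate block, each mouse left out, no mitochondrially encoded genes, and other pseudocounts and lengths. Shares without Ptger1 were added after seeing the data. One gene is not reported here. The fits were tested on simulated data before use. Few genes changed in that simulation, evenly up and down, so it cannot speak for TMM scaling where many genes change. Promoters came from RefSeq, and Python 3.11.15 was used to search them and to draw the figures.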

Additional observations from a re-analysis of the deposited data

How the results depend on the processing

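Over 15 settings, Hpgd, Ptgds, Ptger3, Ptger4 and Tbxas1 were called in all 15, Ptges in 12, Ptgs1 in 1 and Ptger1 in 0, and Ptgs2 in 8 of the 14 that could test it, since a mean of at least 50 counts removed it. No direction changed among the values called. On library size alone Ptgs1 was called at 0.84, and DESeq2 gave Ptgs2 a log2 fold change of 1.26 that was not called. With each mouse left out, Ptgs2 ranged from 1.01 to 1.93 and Ptges from 0.55 to 0.82, and 4 to 5 members were called higher. With the limits at an adjusted p of 0.01 and 2-fold, 1 member was called higher. Of the 57 other prostanoid and leukotriene pathway genes 36 were tested, and 11 were called higher and 5 lower. Over all 16592 genes tested, 19.6% were higher and 15.5% lower. On library size alone 17 were higher and 2 lower, where 5985 of all genes were higher and 1338 lower. With upper quartile scaling 3 were lower, beside 2168 of all genes. With each mouse left out 4 to 8 were lower, beside 2283 to 2708 of 16816 to 17225 genes. At the stricter thresholds 2 were lower and at any fold 8, and the shares over all genes at these limits are not given here. The cause of these shifts was not tested.

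The Ptger4 share of EP receptor mRNA was higher by 7.54 points on day 21 in the report, by 10.3 with the longest transcript as length and by 8.79 without length correction. Without Ptger1 the changes of Ptger2, Ptger3 and Ptger4 were 1.04, -29.7 and 28.7 points, since the total is smaller.

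Replicate numbers were shared between the days, but same-numbered mice correlated at -0.015, 0.161 and 0.087, and replicate 1 of each day correlated better with another number than with its own, so the numbers were not taken as pairs. With the replicate block, 3235 genes were called higher and 2523 lower against 3249 and 2572, Ptgs2 was at 1.36 and no member's call changed. The depth limits Ptgs2 and Ptger2, which had 5 to 41 and 5 to 21 counts per mouse.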

Other observations

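The leukotriene branch, which draws on the same arachidonic acid through lipoxygenases, was also measured. Of 15 genes 9 were tested, with 3 called higher and 2 lower by edgeR and a median log2 fold change of 0.34. Among all genes tested, 19.6% were called higher and 15.5% lower. Cysltr1, a receptor of cysteinyl leukotrienes, rose by 3.24, with 4, 6 and 6 counts in the day-0 mice and 86, 73 and 67 counts in the day-21 mice (edgeR adjusted p = 6.53e-05). Cysltr1 passed the filter only through its day-21 counts. Alox5ap, the protein that presents arachidonic acid to 5-lipoxygenase, rose by 2.22, with 33, 63 and 33 counts on day 0 and 241, 307 and 336 counts on day 21 (edgeR adjusted p = 2.18e-05). Alox5, the lipoxygenase itself, had 2 to 15 counts per mouse and was not tested, and it is named after its values were seen. Dpep1, a dipeptidase that trims leukotriene D4, fell by 1.63, with 1389, 2106 and 1570 counts on day 0 and 848, 585 and 960 counts on day 21. Mgst3, a microsomal glutathione transferase, fell by 0.66. The groups of these 4 called genes did not overlap, as was so in 57.1% of all genes tested. Macrophage markers, of which 8 of 8 were called higher, moved in the direction of Cysltr1 and Alox5ap, and their part in these values was not tested.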
